A study of Mus musculus with 8 samples.

Results

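Loss of p107 in skin that kept pRb was examined by setting the 2 arrays titled pRb+/+;p107-/- against the 2 arrays titled pRb+/+. These are 4 of the study's 8 arrays, assigned to their groups by their titles. All 22626 probe sets that are not array controls, of 22690 in all, were compared. Of them, 20380 carry 1 gene symbol and measure 12393 genes. The study used Affymetrix expression arrays to profile whole skin from newborn FVB mice of 4 genotypes, with 2 arrays a genotype and RNA of 3 animals pooled on each array. The pRb+/+;p107-/- mice lacked p107 and had pRb, and the pRb+/+ mice had pRb, with no p107 genotype in their titles. The other 4 arrays, titled pRb-/-;p107-/- and pRb-/-;p107+/+, entered the estimate of the spread and give the same genes in skin labelled as lacking pRb. The labels name no promoter or Cre driver for either deletion, do not give the sex of the pups and do not say whether the 2 arrays of a genotype hold separate pools. P-values therefore measure the spread between arrays, which may be technical.

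p107 is the product of Rbl1 and pRb that of Rb1. Both are pocket proteins, which bind E2F transcription factors and hold down genes of DNA replication until a cell commits to divide. p107 mostly pairs with the repressive E2F4 and with the MuvB proteins in a complex that represses cell cycle genes, many of them through E2F sites and the sequence called CHR. In mouse epidermis pRb is known for holding back keratinocyte division, and p107 for taking over part of that work when pRb is missing.

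The deposited values are scores, in which each probe set has a mean of 0 and an SD of 1 over the 8 arrays. A score of 1 is thus 1 SD of that probe set, no score can pass 2.475 in size, and neither levels, fold changes nor signal over background can be read from them. Differences are pRb+/+;p107-/- minus pRb+/+ on this scale, given ± the standard error from a linear model (limma, unmoderated test, 4 residual degrees of freedom, n = 2 arrays a genotype). A probe set is called where its p, adjusted by Benjamini-Hochberg over all 22626 probe sets, is below 0.05. The median difference over all probe sets was 0.351 and 58.8% were positive, while with each array's median subtracted the median difference was 0.0375. Lists of genes are therefore read against 0.351. The poly-A controls, RNAs added before labelling, averaged -0.57 and -0.55 in pRb+/+;p107-/- skin, against 0.30 and 0.19 in pRb+/+ skin. The Gapdh control probe sets averaged 0.80 and 0.57 in pRb+/+;p107-/- skin, against -1.47 and -1.52 in pRb+/+ skin. The hybridization controls averaged -0.80 and -0.71 in pRb+/+;p107-/- skin, against 0.37 and 2.05 in pRb+/+ skin, where the arrays thus differed from each other. The beta-actin control probe sets averaged 0.05 and -0.02, against 0.30 and -0.86. The part of these control differences in the results below was not tested.

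The targeted gene was read first. Rbl1 scored -1.51 and -1.22 in pRb+/+;p107-/- skin, against 0.08 and 0.21 in pRb+/+ skin. Its other probe set scored -1.53 and -1.12 in pRb+/+;p107-/- skin, against 0.58 and 1.03 in pRb+/+ skin. In both probe sets the pRb+/+;p107-/- arrays were the lowest of all 8 and the groups did not overlap, but neither difference passed the threshold (-1.51 ± 0.25, adjusted p = 0.103, and -2.13 ± 0.55, adjusted p = 0.175). No source used here places the probes inside or outside the deletion. The retained gene Rb1 scored 0.02 and 0.40 in pRb+/+;p107-/- skin, against 1.21 and 1.07 in pRb+/+ skin (-0.93 ± 0.27, adjusted p = 0.198). Rbl2, which encodes the third pocket protein p130, gave differences of opposite sign in its probe sets, 1.03 ± 0.90 and -1.15 ± 0.91, and neither passed.

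With p107 loss 46 probe sets rose, which is 0.203% of those tested, and 49 fell, which is 0.217%, or 0.42% in both directions. The near even split depends on scaling, since there were 13 higher and 39 lower with array medians subtracted, and 25 higher and 51 lower with quantile normalization. Those with 1 gene symbol measured 42 genes that rose and 40 that fell, with Ak3, a mitochondrial adenylate kinase, counted on both sides because its probe sets were called in opposite directions. At an unadjusted p below 0.05 there were 2654 higher (11.7%) and 1739 lower (7.69%) probe sets, where 1131 in all would lie by the definition of the test. All 95 called probe sets kept their sign and an unadjusted p below 0.05 whichever of the 8 arrays was left out. They were selected for a very small p on these same arrays, so this outcome was largely fixed in advance. However, with 1 array fewer at most 2 probe sets passed the adjusted threshold, and none of those was among the 95. The moderated limma test called 0 probe sets, with 4989 at an unadjusted p below 0.05.

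Among the called genes the pRb+/+ arrays more often stood apart than the pRb+/+;p107-/- arrays. Calls select probe sets with a wide and tight gap between these genotypes. Shares above those of all probe sets are therefore partly built in and are given as a description. The pRb+/+ arrays lay outside the range of all other 6 arrays in 42 of the 46 that rose and 41 of the 49 that fell, against 17.6% of all probe sets. The pRb+/+;p107-/- arrays lay outside the range of the other 6 in 22 and 19, against 12.9% of all. The 4 arrays labelled p107-/- lay apart from the other 4 in 25 that rose and 42 that fell, against 15.7% of all. The mean score of the 49 that fell was -0.81 and -0.80 in pRb+/+;p107-/- skin and 1.13 and 1.15 in pRb+/+ skin. It was -0.68 and -0.74 in pRb-/-;p107-/- skin and 0.38 and 0.37 in pRb-/-;p107+/+ skin. On average, then, the genes that fell were low in p107-/- skin of either pRb genotype and highest in pRb+/+ skin. The mean of the 46 that rose was 0.93 and 0.84 in pRb+/+;p107-/- skin and -1.33 and -1.34 in pRb+/+ skin. It lay between these in pRb-/- skin, at 0.45 and 0.38 with p107 missing too and 0.02 and 0.05 in pRb-/-;p107+/+ skin.

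**Figure D1:**
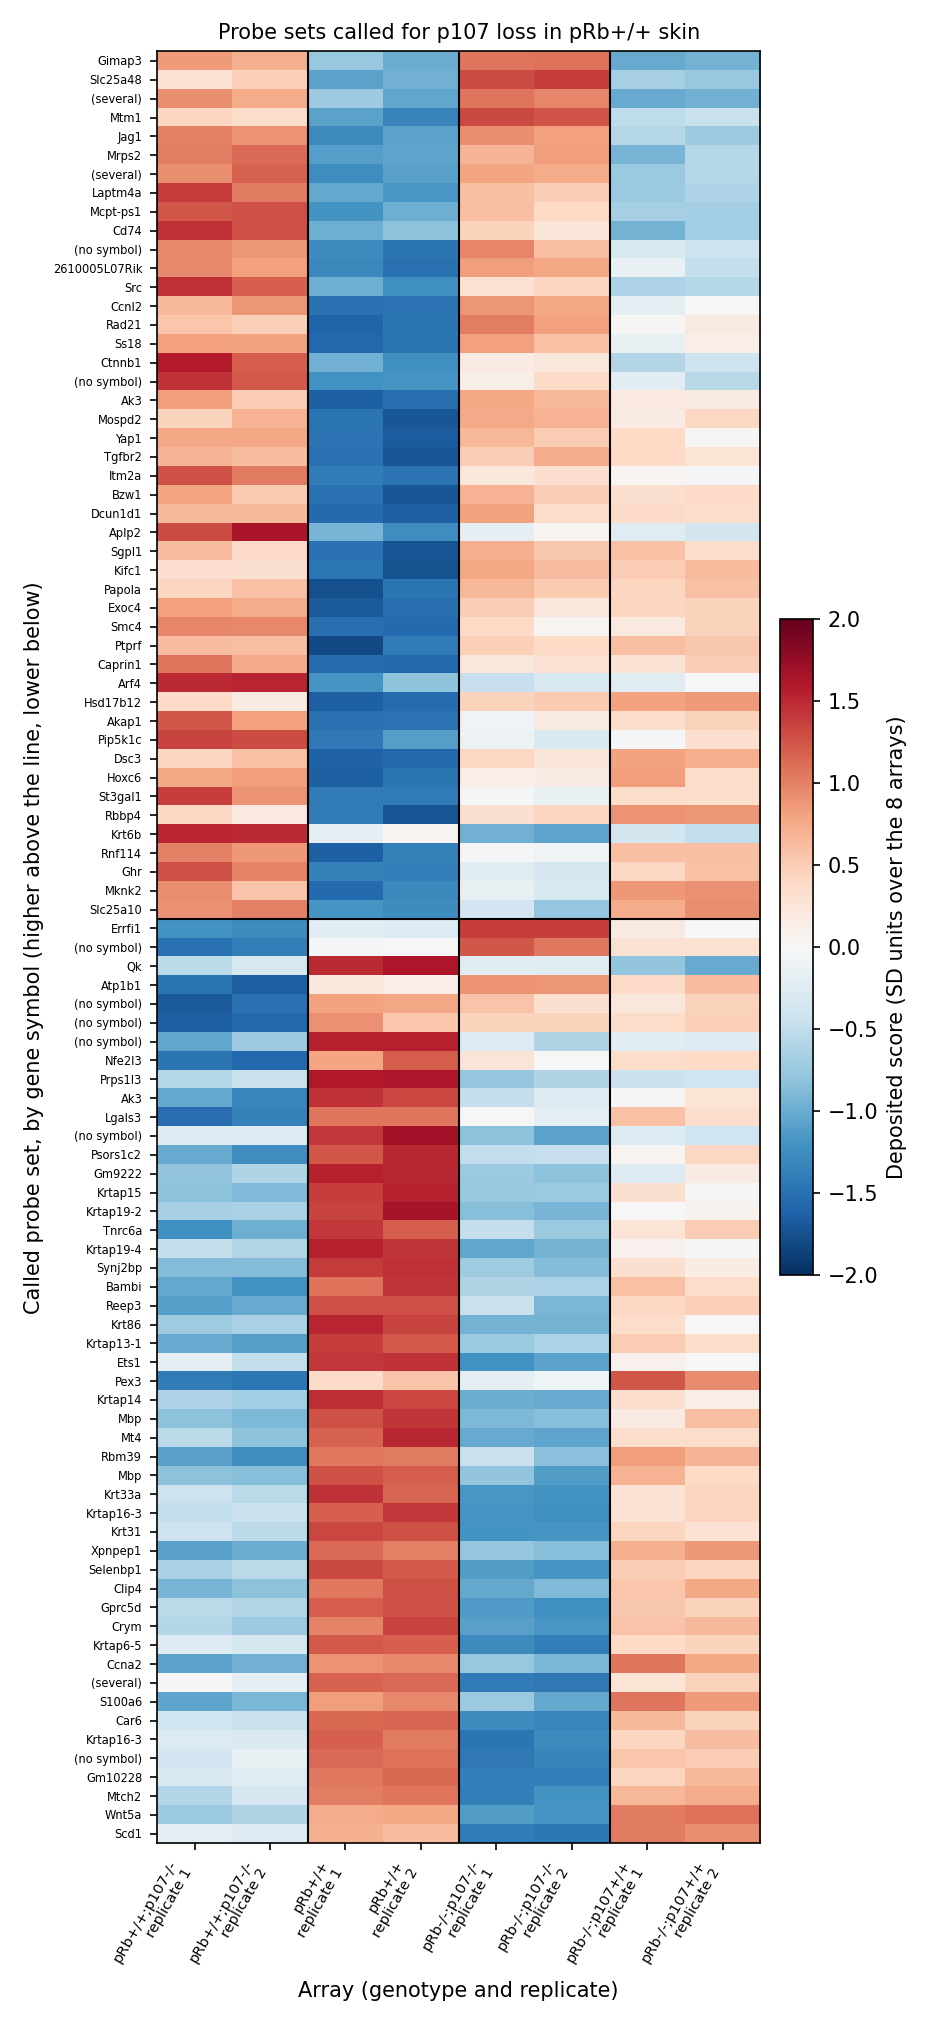
Scores of the 95 probe sets called for p107 loss in pRb+/+ skin, with an array in each column and a probe set in each row, coloured from blue (below its own mean over the arrays) to red (above it) in SD units. The 46 above the line are lowest on the pRb+/+ arrays in most rows, and the 49 below it are highest there.

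Genes of 4 hair lists made up 15 of the 49 probe sets that fell. Of these, 3 measured hair keratins, 8 keratin-associated proteins and 4 were from a list of other hair proteins. The hair shaft is built of hair keratins, which form its filaments, and of keratin-associated proteins, which crosslink them, while the inner root sheath moulds the shaft as it grows. The 4 lists of hair shaft and inner root sheath genes hold 62 probe sets for 55 genes. In 55 of the 62 the difference was negative, with a median of -1.77 against 0.351 over all probe sets, and 52 did not overlap and were lower, which held for 22.1% of all probe sets. Of the 62, 15 fell (24.2%, for 14 genes) and 0 rose, where 0.217% of all probe sets fell and 0.203% rose. In whole skin, fewer cells of a type and less RNA per cell cannot be told apart.

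Gprc5d, an orphan receptor gene of the hair bulb, had the smallest p of all probe sets. It scored -0.54 and -0.59 in pRb+/+;p107-/- skin, against 1.21 and 1.27 in pRb+/+ skin, and fell by 1.80 ± 0.05 (adjusted p = 0.0313). Both mutant arrays lay below the mean of the probe set and both pRb+/+ arrays well above it. Krtap6-5, a keratin-associated protein gene, scored -0.26 and -0.35 in pRb+/+;p107-/- skin, against 1.23 and 1.20 in pRb+/+ skin, and fell by 1.51 ± 0.05 (adjusted p = 0.0313). Krtap19-4 scored -0.48 and -0.58 in pRb+/+;p107-/- skin, against 1.55 and 1.43 in pRb+/+ skin (-2.02 ± 0.07, adjusted p = 0.0313). These 3 genes showed the same layout, with the mutant arrays close together and no overlap. Krtap14 fell by 2.06 ± 0.10 (adjusted p = 0.0371), and Krt33a, an acidic hair keratin gene, by 1.78 ± 0.12 (adjusted p = 0.0446). Krtap16-3 fell in both of its probe sets, by 1.77 ± 0.09 and 1.40 ± 0.11. The 8 calls among the 31 probe sets of the keratin-associated protein list (25.8%, against 0.42% of all) were all in this direction. Of the 31 differences 27 were negative.

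Among hair shaft keratins 11 of 12 probe sets were negative, with a median of -1.95 and 3 that fell (25%, against 0.42% of all called). The exception was Krt84, with scores of 1.38 and -0.37 in pRb+/+;p107-/- skin, against -0.84 and -0.76 in pRb+/+ skin (1.30 ± 0.62, adjusted p = 0.351). Among the keratin-associated proteins Krtap19-1 was the clearest exception, with 1.52 and 0.62 in pRb+/+;p107-/- skin, against -0.14 and -0.43 in pRb+/+ skin (1.35 ± 0.44, adjusted p = 0.23). These genes lie in families of similar sequence, and probes can share targets between members. The inner root sheath list had 6 of 6 negative differences, with a median of -1.68 and 0 called, where 0.42% of all probe sets were. Its smallest p was that of Tchh, which encodes trichohyalin, the granule protein of the inner root sheath. Tchh scored -0.79 and -0.65 in pRb+/+;p107-/- skin, against 1.40 and 1.22 in pRb+/+ skin (-2.03 ± 0.20, adjusted p = 0.0649).

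Of the 13 probe sets in the list of other hair proteins 11 were negative and 4 fell (30.8%, against 0.42% of all called). Not all members of this list encode parts of the shaft itself. Crym, which encodes a thyroid hormone binding crystallin, fell by 1.83 ± 0.14, with scores of -0.58 and -0.73 in pRb+/+;p107-/- skin, against 1.00 and 1.35 in pRb+/+ skin. Pou2f3, a transcription factor gene of suprabasal keratinocytes, had a difference the other way of 1.99 ± 0.47 that did not pass (adjusted p = 0.156). Outside the lists Mt4, the metallothionein gene of stratified epithelia, fell by 2.02 ± 0.15, and S100a6, which encodes a calcium binding protein, fell by 1.88 ± 0.14. Car6, a secreted carbonic anhydrase gene, scored -0.40 and -0.44 in pRb+/+;p107-/- skin, against 1.15 and 1.16 in pRb+/+ skin, and fell by 1.57 ± 0.07.

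**Figure D2:**
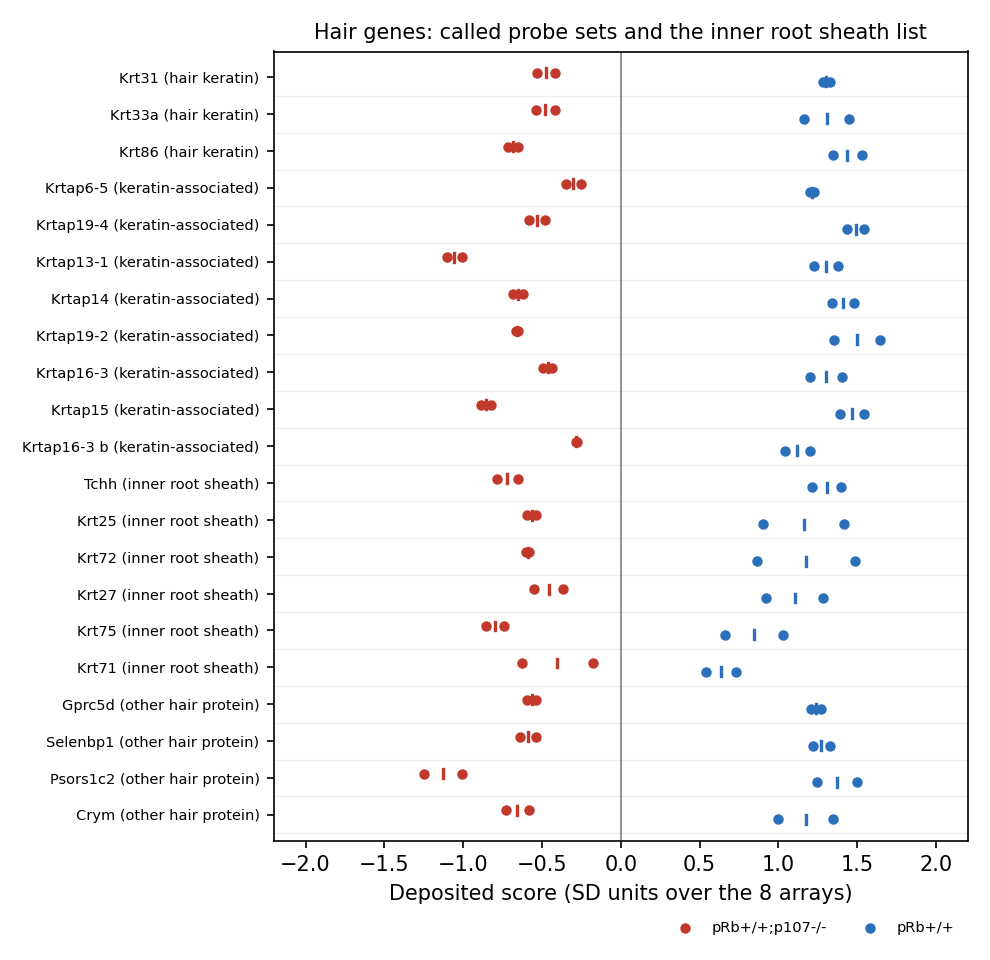
Scores in SD units (horizontal axis) of the 15 called hair probe sets and of the 6 inner root sheath probe sets, with a dot for each array of pRb+/+;p107-/- (red) and pRb+/+ (blue) skin and a bar at each mean. A letter b marks the other probe set of a gene, and in each of these rows all red dots lie left of all blue dots.

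Because these genes moved together, their promoters were read for short motifs in the 250 bases before the RefSeq start (GRCm38.p6), on both strands. Of the 14 hair genes that fell, 11 matched a promoter in the table. The TATA word TATAAA was in 7 of the 11 (63.6%), against 12.4% of all 32851 promoters and 9.76% of the 41 promoters of genes that rose. Words bound by LEF1 and TCF factors, which act in the Wnt pathway, were in 5 of the 11 (45.5%), against 14.8% of all. These words are CTTTGAA and the same with the last 2 letters AT, TA or TT. The CHR word TTTGAA, which lies inside CTTTGAA, was in 4 (36.4%), against 16% of all. HOXC13 words were in 7 of the 11 (63.6%), against 17.2% of all. They read TTAAT or TTTAT, then any base, then AA, AG, GA or GG. Some share letters with TATA words, as in Gprc5d, and they are not marked below. The E2F words, which read TTT, then CC, CG, GC or GG, then CGC, were in 0 of the 11, 0 of the 41 and 1.86% of all. A match is a description of these letters and does not show a bound site. Many of the 11 belong to gene families of similar sequence, so their promoters may not be separate observations. Promoters of hair genes that were not called were not set beside them. The promoters of 4 called hair genes are shown to let the words be seen in place, each on the minus strand, with the LEF1 and TCF words and the TATA words of either strand in capitals.
Krt31, chr11:100050552-100050801: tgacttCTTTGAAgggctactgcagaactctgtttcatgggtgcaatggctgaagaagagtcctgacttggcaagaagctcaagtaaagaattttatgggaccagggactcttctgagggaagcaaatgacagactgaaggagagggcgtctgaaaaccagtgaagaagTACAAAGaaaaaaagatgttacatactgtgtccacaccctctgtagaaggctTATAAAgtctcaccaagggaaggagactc
Krtap16-3, chr16:88962874-88963123: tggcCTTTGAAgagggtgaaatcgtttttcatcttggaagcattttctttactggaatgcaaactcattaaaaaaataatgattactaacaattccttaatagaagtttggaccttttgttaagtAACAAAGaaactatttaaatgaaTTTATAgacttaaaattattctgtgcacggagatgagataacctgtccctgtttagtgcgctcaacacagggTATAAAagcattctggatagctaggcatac
Krtap6-5, chr16:89047900-89048149: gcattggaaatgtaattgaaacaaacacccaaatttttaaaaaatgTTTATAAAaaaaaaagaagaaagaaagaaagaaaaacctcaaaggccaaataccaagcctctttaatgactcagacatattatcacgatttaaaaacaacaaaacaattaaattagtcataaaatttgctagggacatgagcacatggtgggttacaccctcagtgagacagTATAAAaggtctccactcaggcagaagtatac
Gprc5d, chr6:135118284-135118533: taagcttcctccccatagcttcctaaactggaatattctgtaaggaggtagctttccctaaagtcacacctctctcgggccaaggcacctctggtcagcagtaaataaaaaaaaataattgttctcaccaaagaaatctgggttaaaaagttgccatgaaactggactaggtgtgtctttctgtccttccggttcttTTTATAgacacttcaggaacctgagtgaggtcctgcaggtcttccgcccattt
Krt31, Krtap16-3 and Krtap6-5 have TATAAA on the forward strand, and Krt31 and Krtap16-3 each hold 2 LEF1 and TCF words.

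Regulators of the hair follicle did not share the direction of the shaft genes. Of 71 probe sets 39 were positive, and the median was 0.18, or -0.13 with array medians subtracted. Of the 71, 2 fell and 0 rose (2.82% called, against 0.42% of all). Wnt5a, a non-canonical Wnt ligand gene of the dermis and follicle, fell: it scored -0.74 and -0.60 in pRb+/+;p107-/- skin, against 0.75 and 0.77 in pRb+/+ skin (-1.43 ± 0.06, adjusted p = 0.0313). Its other probe set differed by -2.20 ± 0.18 and just missed the threshold (adjusted p = 0.054). Shh, the Hedgehog ligand gene of the growing follicle, scored 1.25 and 1.02 in pRb+/+;p107-/- skin, against -1.06 and -1.77 in pRb+/+ skin (2.55 ± 0.29, adjusted p = 0.0719). Cux1, a homeobox gene of the inner root sheath lineage, differed by 2.52 ± 0.23 and 2.41 ± 0.23 in probe sets that did not pass (adjusted p = 0.0605 in each).

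The Hox cluster genes, which encode homeodomain factors that keep positional identity along the body, had the highest median of the 46 lists. Of 38 probe sets 32 were positive, with a median of 1.79 against 0.351 over all, and 28 did not overlap and were higher, which held for 35.2% of all probe sets. With array medians subtracted the median was 1.47 and again 32 were positive. The lowest and highest medians with 1 array left out were 1.67 and 1.79. The median score of the list was 0.65 and 0.71 in pRb+/+;p107-/- skin, against -1.01 and -0.95 in pRb+/+ skin. It was 0.06 and 0.17 in pRb-/-;p107-/- skin and 0.61 and -0.22 in pRb-/-;p107+/+ skin. The pRb+/+ arrays thus had the lowest medians, and replicate 1 of pRb-/-;p107+/+ skin lay near the pRb+/+;p107-/- arrays. Only Hoxc6 rose. It scored 0.77 and 0.83 in pRb+/+;p107-/- skin, against -1.64 and -1.47 in pRb+/+ skin (2.35 ± 0.18, adjusted p = 0.0482), and its other probe sets differed by 2.39 ± 0.37 and 2.12 ± 0.66. Hoxa7 scored 1.04 and 0.84 in pRb+/+;p107-/- skin, against -1.89 and -1.09 in pRb+/+ skin (2.44 ± 0.32, adjusted p = 0.0802). Hoxb6 differed by 2.13 ± 0.33 (adjusted p = 0.0931).

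The clusters were not alike. All 10 Hoxb probe sets were positive and did not overlap, with differences of 1.43 to 2.24. In the Hoxc cluster 7 of 8 were positive, and in the Hoxa cluster 11 of 13. In the Hoxd cluster 4 of 7 were positive, 3 did not overlap and were higher, and 2 did not overlap and were lower. Over all probe sets 35.2% did not overlap and were higher, and 22.1% did not overlap and were lower. The negative members included Hoxc13, the Hox gene that drives hair keratin genes. Hoxc13 scored -0.24 and -0.55 in pRb+/+;p107-/- skin, against 1.89 and 0.81 in pRb+/+ skin (-1.75 ± 0.73, adjusted p = 0.303). It thus lay on the side of the hair shaft genes and not on that of its neighbour Hoxc6. Hoxd10 differed by -1.65 ± 0.93 and Hoxd9 by -0.75 ± 0.57, neither past the threshold.

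**Figure D3:**
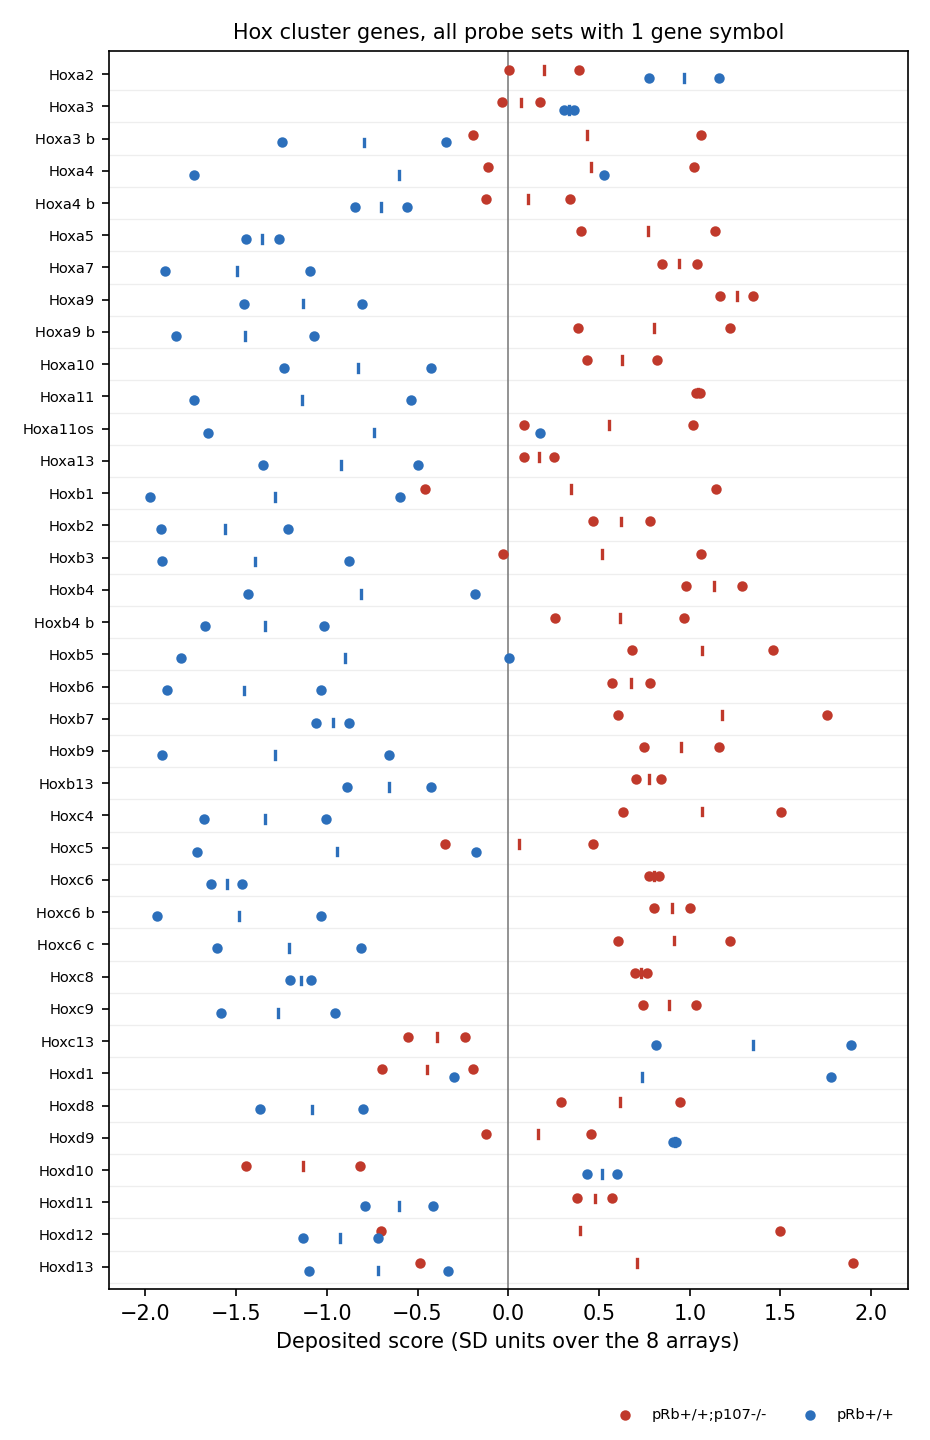
Scores in SD units (horizontal axis) of all 38 Hox probe sets in cluster order, with a dot for each array of pRb+/+;p107-/- (red) and pRb+/+ (blue) skin and a bar at each mean. Letters b and c mark further probe sets of a gene. Red dots lie right of blue dots in 28 rows, and left of them in 5, among them Hoxc13.

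Cell cycle genes are the best known targets of the pocket proteins. In the list of S phase and DNA replication genes 62 of 88 probe sets were positive, with a median of 0.59, and 0 were called, where 0.42% of all probe sets were. Among the Mcm genes, which encode the replicative helicase, 16 of 18 probe sets were positive, with a median of 0.72. The ribonucleotide reductase gene Rrm1 scored 0.35 and 0.21 in pRb+/+;p107-/- skin, against -1.50 and -1.65 in pRb+/+ skin (1.85 ± 0.21, adjusted p = 0.0716). Members with a negative difference included the clamp loader gene Rfc4 (-2.43 ± 0.36, adjusted p = 0.0897), and probe sets of the chromatin gene Uhrf1 differed in sign (1.22 ± 0.19 and -1.40 ± 0.26). E2f1 differed by 2.08 ± 0.48 and 1.21 ± 0.72, and E2f4 by 1.73 ± 0.46, without passing. The list of Rb family and E2F factors had 10 positive and 9 negative probe sets and 0 called, where 0.42% of all were. Its median was 0.22, below the 0.351 of all probe sets, and -0.09 with array medians subtracted.

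In the list of G2 phase and mitosis genes 50 of 94 probe sets were positive, with a median of 0.21, and 1 rose and 1 fell (2.13%, against 0.42% of all). With array medians subtracted this median was -0.11. Smc4, a condensin subunit gene, rose: it scored 0.98 and 0.97 in pRb+/+;p107-/- skin, against -1.50 and -1.56 in pRb+/+ skin (2.50 ± 0.15, adjusted p = 0.0446). Its other probe sets differed the other way, by -1.34 ± 0.66 and -1.37 ± 0.88. The cyclin gene Ccna2 fell in its called probe set and differed by 1.17 ± 0.62 in its other probe set. Of genes not on that list, Kifc1, a mitotic kinesin gene with 1 probe set, rose by 1.92 ± 0.13 (adjusted p = 0.0446), and Rad21, a cohesin subunit gene, rose by 2.05 ± 0.11 (adjusted p = 0.0385) with negative differences in its other probe sets. The D-type cyclin gene Ccnd1, which starts the inactivation of pocket proteins, scored -0.39 and -0.68 in pRb+/+;p107-/- skin, against 0.87 and 1.01 in pRb+/+ skin (-1.47 ± 0.19, adjusted p = 0.0784). No direction of the cell cycle as a whole can be read from these values.

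The lists of spinous layer, stress keratinocyte and junction genes held 1 called probe set each, of 16, 42 and 27. These are 6.25%, 2.38% and 3.7%, against 0.42% of all probe sets. A single call is a result about that gene and not about its list. Dsc3, which encodes a desmosomal cadherin, rose: it scored 0.42 and 0.59 in pRb+/+;p107-/- skin, against -1.62 and -1.57 in pRb+/+ skin (2.10 ± 0.09, adjusted p = 0.0342). Krt6b, a keratin gene of stressed epidermis, scored 1.52 and 1.50 in pRb+/+;p107-/- skin, against -0.18 and 0.04 in pRb+/+ skin (1.58 ± 0.10, adjusted p = 0.0446), and the mutant arrays were the highest of all 8. Both genes parted the groups without overlap. Ctnnb1, which encodes the adherens junction protein and Wnt effector beta-catenin, rose by 2.50 ± 0.17 (adjusted p = 0.0446). Its other probe sets were higher too, by 2.47 ± 0.42 and 1.35 ± 0.74. In the list of junction genes as a whole 18 of 27 probe sets were negative, with a median of -0.89. The gap junction gene Gjb6 differed by -1.57 ± 0.21 (adjusted p = 0.0802) and Gja1 by 2.26 ± 0.22 (adjusted p = 0.0662). Among markers of basal and suprabasal keratinocytes, differences were 1.73 ± 0.63 for Krt5, 1.60 ± 0.74 for Krt10 and -0.10 to 0.60 for the 3 probe sets of Krt14. None of these passed. The basal keratinocyte and spinous layer lists had medians of 0.66 and 0.91. With 1 array left out the basal keratinocyte median ranged from -0.11 to 1.55 and the spinous layer median from 0.69 to 1.03. Of the 46 probe sets for the granular layer and cornified envelope 24 were positive and 0 were called, where 0.42% of all probe sets were.

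Several genes of signalling pathways were called. Jag1, a Notch ligand gene, rose: it scored 1.00 and 0.90 in pRb+/+;p107-/- skin, against -1.28 and -1.07 in pRb+/+ skin (2.13 ± 0.11, adjusted p = 0.0371), and its other probe set differed by 1.99 ± 0.59. In the Notch list 26 of 36 probe sets were positive, with a median of 0.87, and 1 rose (2.78%, against 0.42% of all called). Tgfbr2, a TGF-beta receptor gene, rose by 2.24 ± 0.13 (adjusted p = 0.0446), and its other probe sets differed by 1.53 ± 1.05 and -0.25 ± 1.08. Bambi fell by 2.38 ± 0.16 (adjusted p = 0.0446). With array medians subtracted Bambi still passed (adjusted p = 0.0249) and Tgfbr2 did not (adjusted p = 0.0662). In the TGF-beta and BMP list 37 of 67 probe sets were negative, and 1 rose and 1 fell (2.99%, against 0.42% of all called). Errfi1, a feedback inhibitor gene of the EGF receptor, fell. It scored -1.20 and -1.27 in pRb+/+;p107-/- skin, against -0.22 and -0.25 in pRb+/+ skin (-0.997 ± 0.06, adjusted p = 0.0446), and its other probe set differed by 0.42 ± 0.28. Src rose by 2.43 ± 0.14 (adjusted p = 0.0446), and its other probe set differed by 0.98 ± 0.63. The list of the EGF receptor and Src families had 17 of 29 probe sets positive, and 1 rose and 1 fell (6.9%, against 0.42% of all called). Ghr, the growth hormone receptor gene, rose by 2.49 ± 0.13 (adjusted p = 0.0371), with differences of 0.56 ± 0.24 and 0.29 ± 0.26 in its other probe sets. Ets1, a transcription factor gene, fell by 1.77 ± 0.12 (adjusted p = 0.0446), with differences of -0.66 ± 1.01, -0.26 ± 0.14 and 1.72 ± 0.89 in its other probe sets. Among immediate early genes 22 of 32 were negative, with a median of -0.47 and 0 called, where 0.42% of all probe sets were. Egr1 scored -1.46 and -1.40 in pRb+/+;p107-/- skin, against 0.04 and 0.42 in pRb+/+ skin (-1.66 ± 0.18, adjusted p = 0.0709).

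Immune genes lay mostly on the higher side. In the list of MHC class II and antigen presentation 16 of 19 probe sets were positive, with a median of 1.47, and Cd74, which encodes the invariant chain, rose. It was the only call of that list (5.26%, against 0.42% of all). Cd74 scored 1.46 and 1.29 in pRb+/+;p107-/- skin, against -0.97 and -0.82 in pRb+/+ skin (2.27 ± 0.14, adjusted p = 0.0446). H2-Ab1, a class II beta chain gene, scored 0.94 and 1.79 in pRb+/+;p107-/- skin, against -1.16 and -1.14 in pRb+/+ skin (2.51 ± 0.36, adjusted p = 0.0872), and Ciita, which drives class II transcription, differed by 2.34 ± 0.45 (adjusted p = 0.12). Of the 33 interferon response probe sets 28 were positive, with a median of 0.90 and 0 called, where 0.42% of all probe sets were. Of the lymphocyte markers 21 of 26 were positive, with a median of 0.83. Gimap3, a GTPase gene of T cells that is not on that list, rose by 1.65 ± 0.10 (adjusted p = 0.0446). Mast cell markers had a median of 1.42 with 17 of 20 positive, and 1 rose (5%, against 0.42% of all called). It was Mcpt-ps1, a mast cell protease pseudogene (2.35 ± 0.10, adjusted p = 0.0371). Of members that did not pass, Tpsab1 differed by 1.35 ± 0.13 (adjusted p = 0.0651), Cpa3 by 1.79 ± 0.19 (adjusted p = 0.0662) and Mcpt4 by -0.73 ± 0.19 (adjusted p = 0.18). Macrophage and dendritic cell markers were closer to all probe sets, with 19 of 30 positive, a median of 0.53 against 0.351, and 0 called, where 0.42% of all were. Over the settings run, the lowest medians of the class II, interferon, lymphocyte and mast cell lists were 1.15, 0.55, 0.52 and 1.11. That of the macrophage and dendritic cell list was 0.21. The median of all probe sets changes with the setting too.

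In the list of lipid and sterol synthesis genes 28 of 51 probe sets were negative, with a median of -0.15, and 1 fell (1.96%, against 0.42% of all called). Scd1, a fatty acid desaturase gene of sebaceous glands and fat, was the gene that fell. It scored -0.19 and -0.27 in pRb+/+;p107-/- skin, against 0.71 and 0.62 in pRb+/+ skin (-0.89 ± 0.06, adjusted p = 0.0446), which was the smallest difference among the 95. Its other probe set differed by -0.15 ± 0.23. The elongase gene Elovl6 differed by -1.44 ± 0.12 (adjusted p = 0.0569), and Scd2, a related desaturase gene, had a positive difference of 1.17 ± 0.19 (adjusted p = 0.0988). Of 144 oxidative phosphorylation probe sets 95 were negative, with a median of -0.58 and 0 called, where 0.42% of all probe sets were. With 1 probe set a gene the median was -0.14. Of 92 cytosolic ribosomal protein probe sets 52 were negative, with a median of -0.28 that turned to 0.28 with 1 probe set a gene. Of 47 endoplasmic reticulum stress probe sets 27 were positive, with a median of 0.336, close to that of all probe sets. Hsd17b12, which acts in fatty acid elongation, rose by 1.85 ± 0.09 (adjusted p = 0.0371), and Slc25a10, a mitochondrial dicarboxylate carrier gene, by 2.18 ± 0.16 (adjusted p = 0.0472), each with its other probe set positive. Atp1b1, the sodium pump beta subunit gene, scored -1.47 and -1.64 in pRb+/+;p107-/- skin, against 0.22 and 0.13 in pRb+/+ skin, and fell by 1.73 ± 0.11 (adjusted p = 0.0446).

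**Figure D4:**
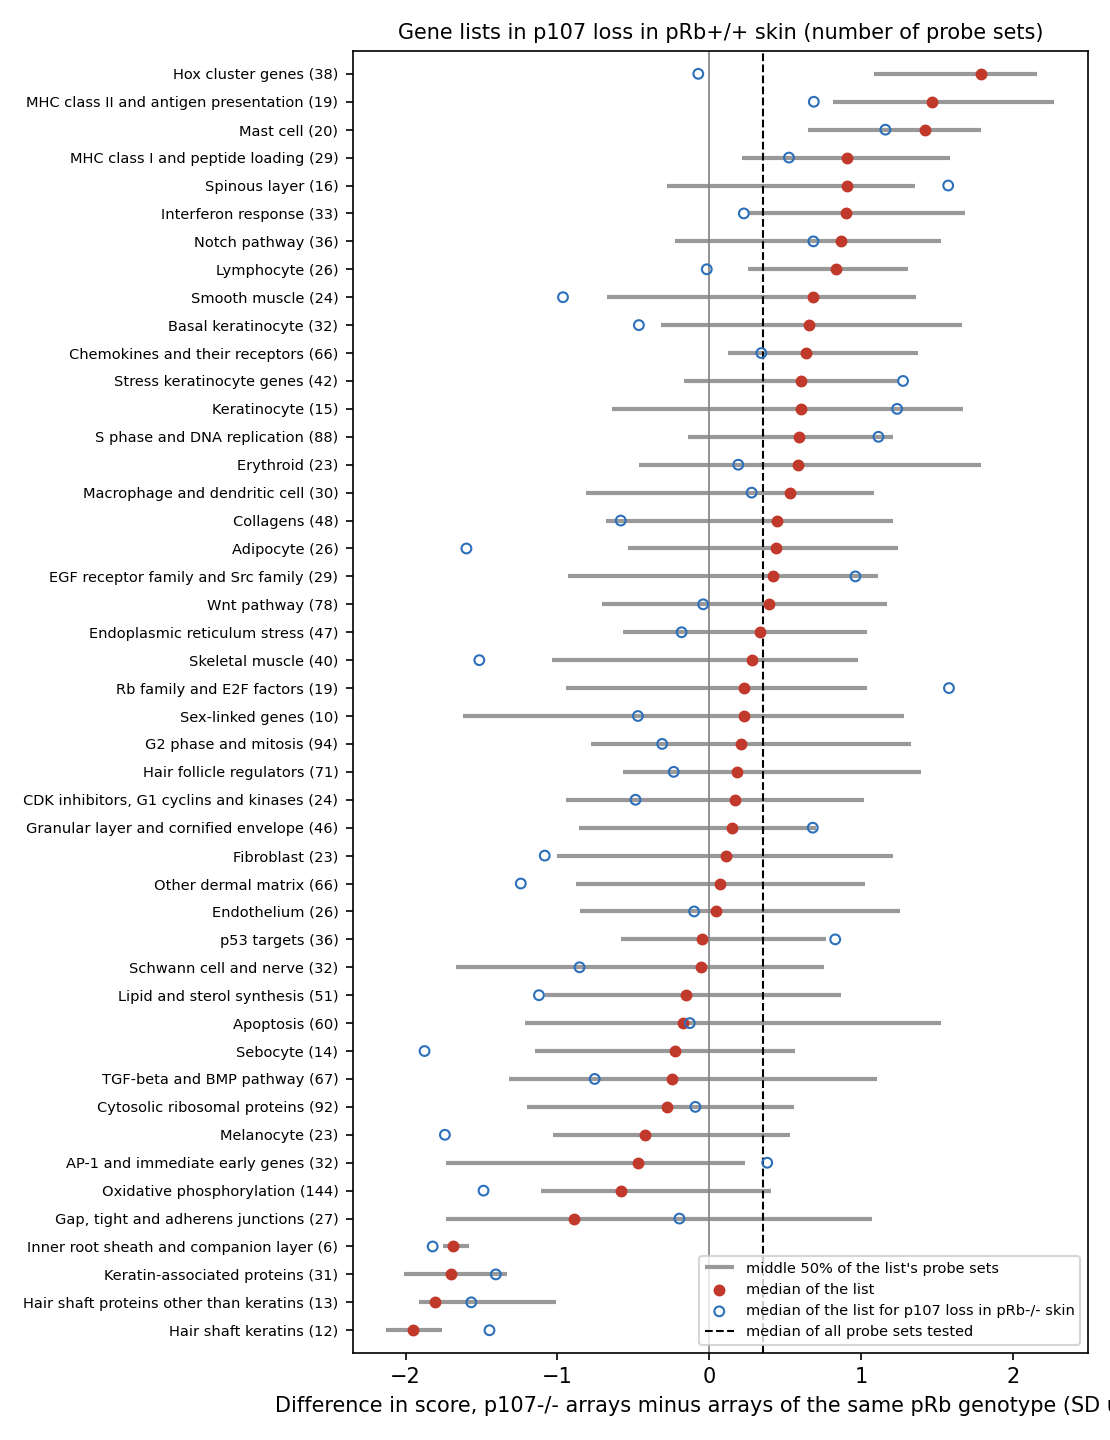
Median difference of each of the 46 gene lists for p107 loss in pRb+/+ skin (red dots) with the middle 50% of its probe sets (grey bars), and the median for p107 loss in pRb-/- skin (open blue circles), in SD units, with the number of probe sets in brackets. The Hox list stands highest at 1.79 and the 4 hair lists lowest, from -1.68 to -1.95, while the dashed line marks 0.351, the median of all probe sets.

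Markers of other cell types of skin were read beside these results. Of the 13 lists of cell type markers, those of mast cells, lymphocytes and smooth muscle had the highest medians, at 1.42, 0.83 and 0.68, and those of melanocytes and sebocytes the lowest, at -0.42 and -0.23. With 1 array left out the smooth muscle median ranged from 0.116 to 0.775 and the sebocyte median from -0.594 to -0.012. Endothelium, fibroblast and skeletal muscle markers had medians of 0.05, 0.11 and 0.28, below that of all probe sets. The melanocyte gene Dct, which acts in pigment synthesis, differed by -1.10 ± 0.18 (adjusted p = 0.097). Mbp, a myelin gene, fell in 2 probe sets, by 2.08 ± 0.16 and 2.20 ± 0.17 (adjusted p = 0.0482 in each), and differed by -2.04 to 1.17 in its other 6. The Schwann cell list itself had 15 positive and 17 negative probe sets. The part of cell type makeup in the calls was not tested. Xist, expressed from an inactive X chromosome, scored 1.21 and 1.44 in pRb+/+;p107-/- skin, against 0.02 and -0.13 in pRb+/+ skin (1.38 ± 0.15, adjusted p = 0.0694), and its other probe sets differed by 1.91 ± 0.45 and 0.45 ± 0.26, the last with overlap. The Y-linked gene Eif2s3y scored -1.43 and -1.51 in pRb+/+;p107-/- skin, against 0.49 and 1.45 in pRb+/+ skin. The part of the pups' sex in the results was not tested.

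Many genes were measured by several probe sets, which gives a second reading of each call. Of 56 called probe sets with another for the same gene, 21 had all others of the same sign and 35 had at least 1 of the opposite sign. In 24 cases another probe set was at an unadjusted p below 0.05 with the same sign, and in 10 cases with the opposite sign. Bzw1, a translation regulator gene, was positive in all 5 of its probe sets, from 0.31 ± 0.99 to 2.25 ± 0.14. Clip4, which encodes a microtubule binding protein, was negative in all 6, from -0.09 ± 0.51 to -2.31 ± 0.45. Yap1, the Hippo pathway coactivator gene, rose by 2.34 ± 0.16 and differed by -1.76 ± 0.54 in its other probe set. Itm2a, a membrane protein gene of differentiating cartilage and muscle, had the largest rise, of 2.60 ± 0.10, and its other probe set differed by -0.60 ± 0.55. For the 35 with an opposite reading, Smc4, Ccna2, Rad21, Yap1, Itm2a, Errfi1, Ets1 and Tgfbr2 among them, the direction holds for the called probe set.

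The same genes were then read for p107 loss where pRb was missing too, in the pRb-/-;p107-/- against the pRb-/-;p107+/+ arrays, which share no array with the comparison above. Both use the spread pooled over all 8 arrays, so each probe set has the same standard error in both, and a small one favours a call in both. Shared calls are therefore a description and not an independent check. Of the 49 probe sets that fell 43 had the same sign there, and of the 46 that rose 29 did, against 61.1% of all probe sets. In that comparison 310 probe sets, 1.37% of those tested, were called, 0.548% higher and 0.822% lower. At an unadjusted p below 0.05, 7.77% were higher and 11.4% lower. Among the 310 were 26 of the 49 and 8 of the 46 with the same sign. The 62 hair probe sets had a median of -1.47 in pRb-/- skin and 57 were negative. Of the 15 hair probe sets that fell in pRb+/+ skin, 11 also fell in pRb-/- skin. Krtap6-5, for example, scored -1.27 and -1.38 in pRb-/-;p107-/- skin, against 0.39 and 0.44 in pRb-/-;p107+/+ skin (-1.74 ± 0.05). Wnt5a fell there by 2.22 ± 0.06 in the probe set that was called in pRb+/+ skin.

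Other genes had values of another sign or size in pRb-/- skin. Errfi1 was called in the opposite direction there, with 1.38 and 1.38 in pRb-/-;p107-/- skin, against 0.17 and 0.01 in pRb-/-;p107+/+ skin (1.29 ± 0.06). The Hox list had a median of -0.07 in pRb-/- skin with 16 of 38 positive, and the difference for Hoxc6 was -0.45 ± 0.18. The test of the difference between the effects of p107 loss in the 2 pRb backgrounds, an interaction term in the same model, called 0 probe sets, and its smallest adjusted p was 0.0502. At an unadjusted p below 0.05 it held 2964 (8.76% higher and 4.34% lower), among them 83 of the 95. The 95 were selected on a difference that is part of this term, with the same spread. Their share is therefore partly built in and is given as a description. Errfi1 had an interaction of -2.29 ± 0.09 (adjusted p = 0.0765), Dsc3 of 2.54 ± 0.12 (adjusted p = 0.0765), Scd1 of 1.52 ± 0.08 (adjusted p = 0.0765) and Hoxc6 of 2.81 ± 0.25 (adjusted p = 0.0925). Differences between the backgrounds are therefore values and not calls.

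**Figure D5:**
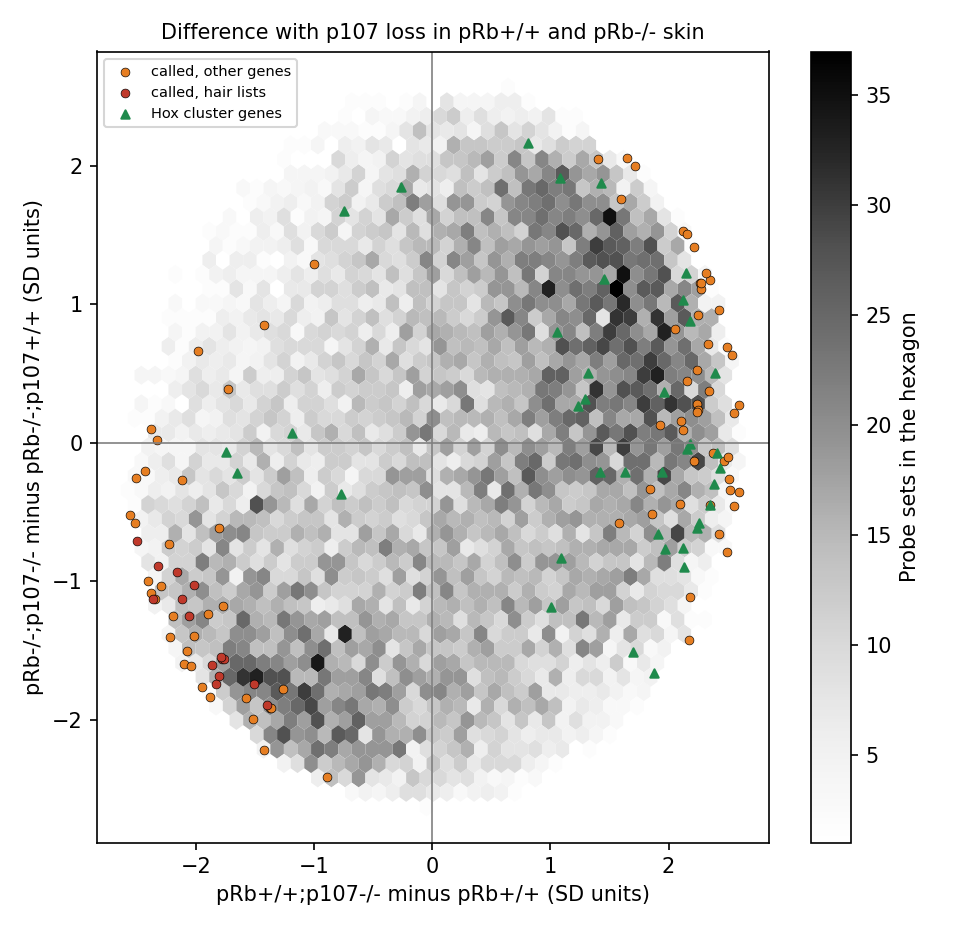
Difference with p107 loss in pRb+/+ skin (horizontal axis) against that in pRb-/- skin (vertical axis), in SD units, with grey hexagons for the number of probe sets, red dots for the 15 called hair probe sets, orange dots for the other called probe sets and green triangles for the 38 Hox probe sets. All red dots lie in the lower left, where both differences are negative, and most triangles lie right of 0 on both sides of the horizontal line.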

How the data were processed

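The authors deposited a table of scores for 8 arrays, in which each probe set has a mean of 0 and an SD of 1 over the arrays. RMA was used per the submitters' processing notes. The standardization and whether it was made on log or linear values are not given in the sources used here. Titles gave each array its genotype and replicate number. Gene names are those of GEO's platform annotation, where 20380 probe sets had 1 symbol, 691 several and 1555 none, and 20351 of the 20380 had an entry in the RefSeq gene table. The 64 control probe sets were left out of the tests. The members of the comparison, the gene lists and the tests were chosen with earlier results of these data known.

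The 4 genotypes were fitted together in 1 linear model with limma 3.58.1 in R 4.3.3, on all 8 arrays, with Benjamini-Hochberg adjustment over 22626 probe sets. The unmoderated test was the main test, because it gives the same result on standardized as on unstandardized values, which moderation does not. In simulated data with 200 changed probe sets it recovered 2% of those shifted by 4 SD of the noise and 78% at 16 SD. With 4000 changed it recovered 38.5% at 4 SD. Only the pRb+/+;p107-/- arrays were shifted there, while in the data other genotypes may differ too. Named genes are called single-gene probe sets, up to 3 members of each list with the smallest p in each direction, the pocket protein genes and sex-linked genes. Values for Krt5, Krt10 and Krt14 were added as keratinocyte markers after their values were seen. Gene lists have counts and medians and no test. Alternatives were moderation, array medians subtracted, quantile normalization, filters on probe sets, 1 probe set a gene for the list medians, only the 4 pRb+/+ arrays, each array left out and the replicate number as a block. Promoters came from RefSeq (GRCm38.p6). Tables were handled in Python 3.11.15 with numpy 2.4.6 and pandas 2.3.3, and figures drawn with matplotlib 3.10.9.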

Additional observations from a re-analysis of the deposited data

How the results depend on the processing

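The count of 95 called probe sets rests on the unmoderated test over 8 arrays. It was 0 with the moderated test and 0 with its robust form, whose unadjusted p was below 0.05 for 4989 and 4765 probe sets, and 0 with only the 4 pRb+/+ arrays, which leave 2 residual degrees of freedom (3518 at an unadjusted p below 0.05). With array medians subtracted it was 52 (13 higher and 39 lower, 26 of them among the 95), and over probe sets of unique design, which adjusts over fewer probe sets, it was 55. Quantile normalization gave 76, 25 higher and 51 lower, with 33 of the 95. Leaving out 1 array gave 0 to 2: without replicate 2 of pRb+/+ it was 2, without its replicate 1 it was 1, and in the other cases 0, which also leaves fewer residual degrees of freedom. The count for the interaction, 0, was 1 over probe sets of unique design and 2 over those with 1 gene symbol, and ranged from 0 to 1 with 1 array left out. The deviations of same-numbered arrays had a correlation of -0.013 between the compared genotypes and -0.131 to 0.105 over all genotypes. Same-numbered arrays thus did not clearly deviate together. Whether they were matched in handling cannot be read from this, and the labels do not say. With the replicate block 1 probe set was called. A Kdm5d probe set with a difference near 0 was -0.31 with array medians subtracted, -0.47 with quantile normalization, and -0.72 to 0.72 with 1 array left out; the cause was not tested. Of the 46 list medians 28 kept their sign in every setting, and array medians subtracted turned 10. With 2 arrays a genotype, the number of arrays limits the precision.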
